A study of Mus musculus with 6 samples.

Results

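Among 12393 genes measured in whole eyeballs of newborn mice, 7 genes outside the crystallin family were selected on how closely their values followed Crybb3, which encodes beta-B3-crystallin, an abundant protein of the lens. The 7 genes were Capn3, Cela1, Dock5, Wnt7a, Tmem40, Acsm1 and Fabp6. Each gene was read by the brightest of its probe sets that name a single gene. A gene was kept when its 6 log2 values correlated with those of Crybb3 at a Pearson r of 0.97 or more and when its highest and lowest arrays lay at least 1.5 log2 units apart. Of the 1734 genes with such a range, 17 also had the correlation. These were the 7 genes, 9 crystallin genes including Crybb3, and Bfsp1, a cytoskeleton gene of lens fibers that was left out by name together with 7 other known lens genes. The same values that chose the 7 genes, in both genotypes, are described below, so that their correlations, ranges and genotype differences are given without a test.

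The eyeballs came from mouse pups at postnatal day 1 on a mixed background, with 3 eyeballs of wild type pups and 3 of Brg1 cKO pups and 1 array for each. Brg1 cKO pups carried 2 floxed alleles of Brg1, the gene Smarca4 that encodes an ATPase of SWI/SNF chromatin remodeling complexes, and were heterozygous for the Le-Cre transgene, whose Cre recombinase acts in the ectoderm of the embryonic head that forms lens and ocular surface. The labels call the controls wild type, while the study elsewhere compared its mutants with floxed littermates without Cre, so that the alleles of these 3 controls are not settled by the sources used here. No array carried Le-Cre without the floxed alleles. By the study's account deletion was not complete, a germline deletion occurred at times, and eye defects varied in severity between mutants. Replicates are described as biological.

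The vertebrate lens is an epithelium whose cells withdraw from the cell cycle, elongate into fibers, fill with crystallins and then degrade their nuclei and other organelles. Because fibers make up most of the lens, RNA of fiber genes in a whole eyeball depends both on how much lens is present and on how strongly the fibers transcribe those genes. In whole eyeballs, fewer lens cells and less RNA per lens cell cannot be told apart. A correlation with a crystallin does not tell in which tissue of the eyeball a gene was expressed.

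Median intensity of the 6 arrays lay between 169.1 and 185.5. The normalization of the deposited values makes such medians alike, so that they do not measure depth of signal. Smarca4 was read by 2 probe sets. The brighter gave log2 values of 10.11, 9.82 and 9.81 in wild type replicates 1 to 3, against 10.35, 9.93 and 9.98 in Brg1 cKO replicates 1 to 3, and the dimmer gave 9.21, 8.37 and 8.67 against 7.82, 7.79 and 8.55. The brighter probe set therefore did not show the deletion, and the sources used here do not say whether either lies in the deleted part. Whole eyeballs also hold retina, where the study stained Brg1 and which Le-Cre is not said to reach. Neither probe set thus measures deletion in the lens. By a Y-linked transcript 1 pup was male, that of Brg1 cKO replicate 1, and 5 were female. Actin control probe sets near the 3' end exceeded those near the 5' end, a gap that grows as RNA degrades, by log2 values that ran from 0.93 to 1.12 in wild type and were 1.28, 1.34 and 0.98 in Brg1 cKO replicates 1 to 3. Its part in the results was not tested.

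The lens signal itself was the yardstick. Crybb3 read 13.80, 13.99 and 13.83 on the log2 scale in wild type replicates 1 to 3, against 10.93, 13.15 and 9.17 in Brg1 cKO replicates 1 to 3. All Brg1 cKO values lay below all wild type values, and Brg1 cKO replicate 3 had the least and replicate 2 the most. On the linear scale, 13%, 60.5% and 3.83% of the mean wild type intensity of Crybb3 were left in Brg1 cKO replicates 1 to 3. Of 10 defining lens markers, the crystallin genes Cryaa, Cryab, Cryba1, Cryba2, Cryba4, Crybb1, Crybb2, Crybb3 and Crygs and the fiber water channel gene Mip, 10 had negative differences and 8 correlated with Crybb3 at 0.9 or more, Crybb3 itself included. Of all 12393 genes, 5839 had negative differences and 115 such a correlation. Crybb2 stood apart with an r of 0.72, and Cryab had an r of 0.85 and its lowest value in Brg1 cKO replicate 1. The order of Crybb3 among the Brg1 cKO arrays was found in 8 of the 10 markers. The pattern that the 7 genes were matched to was thus shared by most lens markers, but it was not tested whether it measures lens size in these eyes.

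**Figure D1:**
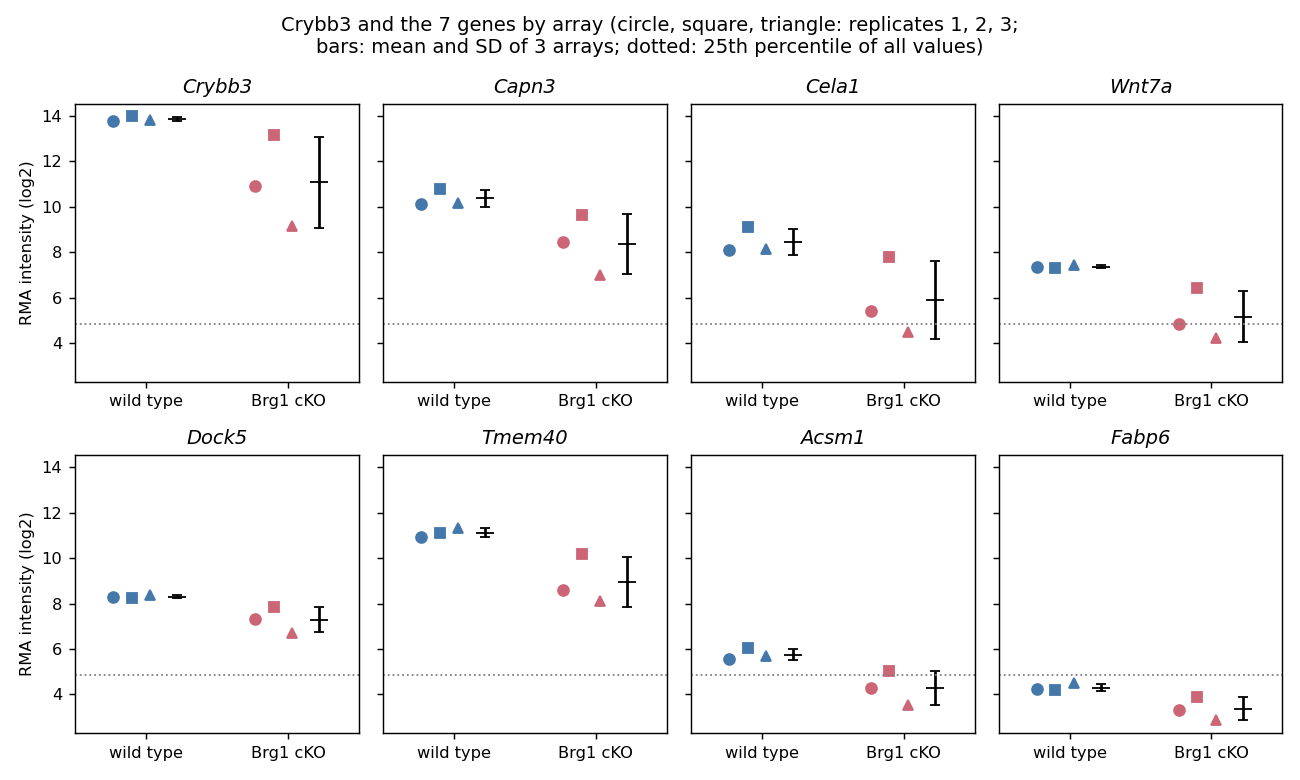
Log2 RMA intensity of Crybb3 and the 7 genes by array, 1 panel per gene. Wild type stands left and Brg1 cKO right, symbols tell replicates 1, 2 and 3 apart, and horizontal lines with bars give the mean and SD (n = 3). The dotted line marks log2 4.84, the 25th percentile of all values. In each panel the Brg1 cKO arrays lie below the wild type arrays, with replicate 2 highest and replicate 3 lowest.

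All 7 genes gave the Brg1 cKO arrays the order of Crybb3, with replicate 2 above replicate 1 and replicate 1 above replicate 3, as the rule all but required. Of all 12393 genes, 17.8% had this order. The mean of Brg1 cKO minus wild type ranged from -0.93 for Fabp6 to -2.57 for Cela1 in log2 units, with a median of -2.0, and the median over all genes was 0.02. In all 7 every Brg1 cKO value lay below every wild type value, as in 6.44% of all 22626 probe sets. The limma test with Benjamini-Hochberg adjustment over all probe sets called 0 of the 7 genes, where it called 0.203% of probe sets as lower in Brg1 cKO. At an unadjusted limma p under 0.05, 7 of the 7 were lower, with 3.87% of all probe sets. Template matching was re-run here with the study's cut-offs, a correlation with the genotype at an unadjusted p under 0.05 and a fold over 1.5. It took 5 of the 7 and 1.64% of all probe sets as lower. The study reported more genes at these cut-offs, so the re-run does not reproduce its list. Since the rule used this contrast, nothing is read from these counts. The values of the genes among the Brg1 cKO arrays were far apart, with SDs from 0.51 for Fabp6 to 1.72 for Cela1, against 0.06 for Wnt7a to 0.58 for Cela1 among wild type arrays.

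Of the 7 genes, 2 encode proteases. Capn3 encodes calpain 3, a calcium-dependent cysteine protease known from skeletal muscle, where its loss causes a limb-girdle muscular dystrophy, and from the rodent lens, which makes its own splice forms of it. Capn3 read 10.15, 10.80 and 10.16 in wild type replicates 1 to 3, against 8.46, 9.63 and 7.02 in Brg1 cKO replicates 1 to 3 (log2). Wild type replicate 2 was the highest array and Brg1 cKO replicate 3 the lowest, and the lowest wild type array lay 0.52 above the highest Brg1 cKO array. The means were 10.37 ± 0.37 and 8.37 ± 1.31 (SD, n = 3), a log2 difference of -2.0 (SE 0.60) or 4.0-fold, and r with Crybb3 was 0.986, with that of Dock5 the highest of the 7. Capn3 is the single gene of the 7 that stood on a list of lens genes.

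Skeletal muscle, attached to the eyeball from outside, also expresses Capn3. The 17 muscle genes measured, among them Acta1, Myh3, Mylpf and Ckm, had medians of -0.57, -0.44 and 0.80 in wild type replicates 1 to 3, each against the other wild type arrays, and of -0.55, 0.84 and 0.50 in Brg1 cKO replicates 1 to 3 against the wild type mean (log2). In Brg1 cKO the median of muscle genes was thus negative in replicate 1 and positive in replicates 2 and 3. The order of Capn3 in these arrays was set by its choice for correlation with Crybb3, and nothing is read from it. Correlations of the 17 muscle genes with Crybb3 ran from -0.21 to 0.25. Of the 17, 0 were lower in Brg1 cKO replicate 3 than in replicate 1, against 6987 of all 12393 genes. The part of muscle in the values of Capn3 was not tested.

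Cela1 encodes a serine protease of the elastase family, known best as a digestive enzyme of the pancreas. It read 8.12, 9.13 and 8.15 in wild type replicates 1 to 3, against 5.42, 7.81 and 4.47 in Brg1 cKO replicates 1 to 3 (log2). Here too wild type replicate 2 was the highest, and the gap between the groups, 0.31, was smaller only for Fabp6, at 0.27. The means were 8.46 ± 0.58 and 5.90 ± 1.72 (SD, n = 3), a log2 difference of -2.57 (SE 0.79) or 5.92-fold. Cela1 followed Crybb3 most steeply, by 0.90 log2 units for each log2 unit of Crybb3. In Brg1 cKO replicates 1 to 3, 11.4%, 60% and 5.92% of its wild type intensity were left, close to the 13%, 60.5% and 3.83% of Crybb3.

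Promoter sequence is shown because it is independent of the array values that chose the 7 genes. RefSeq windows of assembly GRCm38.p6 were found for 6 of the 7 genes, all but Dock5, and gave 8 windows of 250 bases before an annotated start, since Capn3 and Tmem40 have 2 starts each. The lens forms of calpain 3 are known to begin at an alternative first exon, and the array does not tell which start its signal came from. Of 7 motifs searched on both strands, the Maf half-site TGCTGA, part of the recognition element of Maf factors, which are known activators of crystallin genes, was in 5 of the 8 windows, of Capn3 (both), Cela1, Tmem40 and Acsm1. It was in 16.1% of all 32851 windows and in 9 of 13 windows of alpha-, beta- and gamma-crystallin genes. The 4 windows below, from the genes with the highest wild type values among these, are printed 5′ to 3′ on the strand of the gene, with Maf half-sites of either strand in capitals.
Capn3, first start, chr2:120463343-120463592, + strand: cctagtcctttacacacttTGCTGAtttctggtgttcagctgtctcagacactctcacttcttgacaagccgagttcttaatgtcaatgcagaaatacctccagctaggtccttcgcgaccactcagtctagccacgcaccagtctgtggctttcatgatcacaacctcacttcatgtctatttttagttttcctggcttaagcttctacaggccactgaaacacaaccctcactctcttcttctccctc
Capn3, second start, chr2:120476659-120476908, + strand: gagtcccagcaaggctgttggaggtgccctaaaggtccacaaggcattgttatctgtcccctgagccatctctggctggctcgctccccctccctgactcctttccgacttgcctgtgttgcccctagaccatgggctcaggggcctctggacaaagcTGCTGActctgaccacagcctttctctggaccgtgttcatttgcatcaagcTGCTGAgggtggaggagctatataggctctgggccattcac
Cela1, chr15:100687921-100688170, - strand: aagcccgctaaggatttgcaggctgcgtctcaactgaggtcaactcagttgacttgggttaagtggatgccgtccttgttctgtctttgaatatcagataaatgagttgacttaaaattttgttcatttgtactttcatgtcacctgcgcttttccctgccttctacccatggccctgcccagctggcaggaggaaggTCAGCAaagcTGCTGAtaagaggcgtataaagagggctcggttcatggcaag
Tmem40, first start, chr6:115762467-115762716, - strand: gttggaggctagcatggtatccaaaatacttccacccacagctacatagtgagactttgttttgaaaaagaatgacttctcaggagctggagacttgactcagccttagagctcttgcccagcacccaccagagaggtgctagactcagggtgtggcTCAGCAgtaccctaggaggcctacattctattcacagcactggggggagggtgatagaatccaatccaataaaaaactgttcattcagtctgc

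The second start of Capn3 had 2 half-sites, at positions 159 and 210 of its window, and Cela1 had 2 on opposite strands, TCAGCA at position 199 and TGCTGA at 209, with its TATA box at 224. Of the other motifs, the TATA box TATAAA was found in 2 windows, of Cela1 and Fabp6 (12.4% of all windows), the Sox motif CATTGTT in 1 of Capn3 (3.29%), the AP-1 motif TGANTCA in 1 of Tmem40 (6.75%) and a pair of heat shock units GAANNTTC in 1 of Acsm1 (6.69%). The Pitx-type motif TAATCC (6.25%) and the AP-2 motif GCCNNNGGC (13.7%) were in 0 of the 8. No Maf half-site overlapped a match of another motif. With 8 windows these are counts of letters and not sites, and binding was not measured.

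Dock5 and Wnt7a encode signalling proteins. Dock5 is an activator of the small GTPase Rac, which shapes the actin cytoskeleton, and a deletion in Dock5 is known from a mouse strain with lens rupture and cataract. It read 8.29, 8.24 and 8.38 in wild type replicates 1 to 3, against 7.32, 7.84 and 6.72 in Brg1 cKO replicates 1 to 3 (log2). The wild type arrays were close together, and all Brg1 cKO arrays lay at least 0.41 below them. The means were 8.31 ± 0.07 and 7.29 ± 0.56 (SD, n = 3), a log2 difference of -1.01 (SE 0.28) or 2.02-fold. Dock5 followed Crybb3 with an r of 0.986 and by 0.33 log2 units for each of Crybb3, so that 50.4%, 72.3% and 33.4% of its wild type intensity were left in Brg1 cKO replicates 1 to 3.

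A second probe set of Dock5, which the rule did not use, did not share the pattern. It read 4.33, 3.80 and 4.83 in wild type against 4.53, 5.46 and 4.46 in Brg1 cKO replicates 1 to 3, with an r of -0.02 with Crybb3 and a log2 difference of 0.49 (SE 0.36). Of these 6 values, 5 lay below log2 4.84, the 25th percentile of all values, and the wild type mean was 4.32 against 8.31 for the brighter probe set. The sources used here do not say which transcripts of Dock5 each probe set detects. The description of Dock5 therefore rests on 1 probe set.

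Wnt7a encodes a secreted Wnt ligand, known from limb patterning and from epithelia, the corneal epithelium among them. It read 7.37, 7.30 and 7.42 in wild type replicates 1 to 3, against 4.85, 6.42 and 4.22 in Brg1 cKO replicates 1 to 3 (log2). The wild type arrays were close together, and the gap of 0.87 between the groups was the widest of the 7 genes. The means were 7.36 ± 0.06 and 5.16 ± 1.14 (SD, n = 3), a log2 difference of -2.20 (SE 0.51) or 4.59-fold. In Brg1 cKO replicate 3, Wnt7a lay below log2 4.84, and in replicate 1 it lay at 4.85. Leaving out any 1 array, its r with Crybb3 was 0.979 or more, where the lowest such values of the other 6 genes lay between 0.947 and 0.97.

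Other Wnt genes were looked up after these values had been seen. Of 19 Wnt ligand genes measured, 16 had negative differences, against 5839 of all 12393 genes. Some of these were very small or of dim genes, such as -0.007 for Wnt4 and -0.13 for Wnt1 at a wild type mean of 2.46. An r of 0.97 or more with Crybb3 was found for 3, Wnt9b, Wnt7a and Wnt5b, against 23 of all 12393 genes. Wnt7a, chosen by that correlation, is counted among the 3 and among the 16, so nothing is read from these counts. The median r over the family was 0.48. Wnt5b differed by -0.65 and Wnt9b by -0.27 (log2), and their ranges, 1.19 and 0.48, kept them out of the rule. Wnt9b, at a wild type mean of 4.07, was near the low end of the scale. Wnt6 and Wnt7b, further ligands that epithelia express, differed by -1.01 and -0.94 with r of 0.91 and 0.87, and Wnt3 differed by 0.47 with an r of -0.63.

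Tmem40 encodes a membrane protein whose function is little known. It was the brightest of the 7 and brighter in wild type than 88.4% of genes on the array. It read 10.94, 11.11 and 11.32 in wild type replicates 1 to 3, against 8.58, 10.19 and 8.11 in Brg1 cKO replicates 1 to 3 (log2). The groups were 0.75 apart at their closest. In Tmem40, as in Dock5, Wnt7a and Fabp6, wild type replicate 3 was the highest array, where Crybb3 was highest in replicate 2. The means were 11.12 ± 0.19 and 8.96 ± 1.09 (SD, n = 3), a log2 difference of -2.16 (SE 0.50) or 4.47-fold. With an r of 0.974 it was the gene just inside the threshold.

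A second probe set of Tmem40, designed on the same transcript record, gave the same order of arrays. It read 10.75, 10.90 and 11.11 in wild type against 8.43, 9.86 and 7.73 in Brg1 cKO replicates 1 to 3, a log2 difference of -2.24 (SE 0.49), and its r with Crybb3 was 0.977. Since both probe sets were hybridised with the same RNA, they repeat the reading and not the eye. Capn3, Cela1, Wnt7a, Acsm1 and Fabp6 had 1 probe set each, so that no such check was possible for these 5.

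Acsm1 and Fabp6 are genes of metabolism and were the dimmest of the 7. Acsm1 encodes a mitochondrial enzyme that joins medium-chain fatty acids to coenzyme A, known from liver and kidney. It read 5.55, 6.03 and 5.68 in wild type replicates 1 to 3, against 4.27, 5.03 and 3.53 in Brg1 cKO replicates 1 to 3 (log2). Its means of 5.75 ± 0.25 and 4.28 ± 0.75 (SD, n = 3) differed by -1.48 (SE 0.37), and in Brg1 cKO replicates 1 and 3 it lay below log2 4.84. Differences of such dim genes can be compressed, and 35.4%, 59.9% and 21.2% of its wild type intensity were left in Brg1 cKO replicates 1 to 3.

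Fabp6 encodes a fatty acid binding protein that carries bile acids in the ileum. It read 4.25, 4.18 and 4.49 in wild type against 3.31, 3.91 and 2.90 in Brg1 cKO replicates 1 to 3 (log2). All 6 values lay below log2 4.84, and only 17.5% of genes were dimmer in wild type. The means of 4.31 ± 0.16 and 3.37 ± 0.51 (SD, n = 3) differed by -0.93 (SE 0.27). At this level a reading may hold little signal of the gene itself, and a detection call was not analysed here. When values were floored at log2 4.84, the difference of Fabp6 was 0 and that of Acsm1 -0.85.

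**Figure D2:**
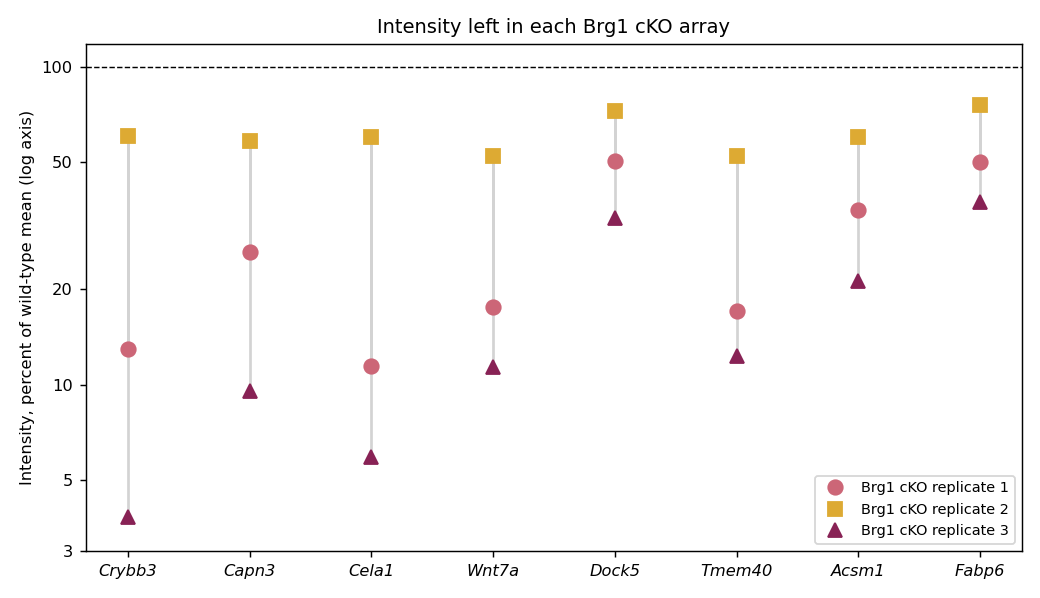
Intensity left in each Brg1 cKO array as a percent of the mean wild type intensity on a log axis, for Crybb3 and the 7 genes, with a symbol for each of the 3 arrays and a dashed line at 100%. Brg1 cKO replicate 2 keeps 52.2% to 75.5% of wild type in the 7 genes and replicate 3 keeps 5.92% to 37.5%.

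Put side by side on a log scale, the 7 genes lay closest together in Brg1 cKO replicate 2 and farthest apart in replicate 3. In replicate 2, between 52.2% (Wnt7a and Tmem40) and 75.5% (Fabp6) of wild type intensity were left, with a median of 59.9%. In replicate 1 the range was 11.4% (Cela1) to 50.4% (Dock5) with a median of 26%, and in replicate 3 it was 5.92% (Cela1) to 37.5% (Fabp6) with a median of 12.3%. Crybb3, at 3.83%, was lower in replicate 3 than any of the 7. The slope on Crybb3 ran from 0.30 for Fabp6 and 0.33 for Dock5 over 0.47 for Acsm1 and 0.68 to 0.69 for Tmem40, Capn3 and Wnt7a to 0.90 for Cela1. Over the 21 pairs of the 7 genes, r lay between 0.936 and 0.996, with a median of 0.975. Such values come from 6 arrays in 2 separate groups and from a choice by correlation, and carry no test.

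Among the 7 genes, background knowledge ties Capn3 to the lens by its lens splice forms and Dock5 by a cataract mutant. This does not set the other genes outside the lens. For Wnt7a, the corneal epithelium is a known source next to the lens. Cela1, Acsm1 and Fabp6 are known from digestive organs and kidney, and Tmem40 is little described. Which cells of these eyeballs made these RNAs was not measured.

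The surface epithelium, which Le-Cre also reaches, was therefore set beside the lens. Its 17 measured genes, such as the corneal keratin gene Krt12 and the epithelial factor gene Ehf, had medians of -1.86, -1.0 and -1.25 in Brg1 cKO replicates 1 to 3 against the wild type mean (log2), and those of the 7 genes were -1.91, -0.72 and -3.01. Replicate 1 was thus the lowest for surface epithelium and replicate 3 for the 7 genes. The order of the 7 genes was set by their choice for correlation with Crybb3, and nothing is read from it. Of the genes on the surface epithelium list, 0 of 17 were lower in replicate 3 than in replicate 1, against 6987 of all 12393 genes. Differences of the 17 genes ran from -4.27 for Cldn8 to 0.87 for the keratin gene Krt14, with Ehf at -3.88 and Krt12 at -3.71. Negative differences were found in 14 of the 17, against 5839 of all 12393 genes. Correlations of surface epithelium genes with Crybb3 ran from -0.68 for Krt14 to 0.87 for Cdh1. Limma called 4 of the 17 as lower, against 33 of all 12393 genes. Brg1 cKO medians of surface epithelium lay below the wild type mean in all 3 arrays, and its part in the values of the 7 genes was not tested.

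**Figure D3:**
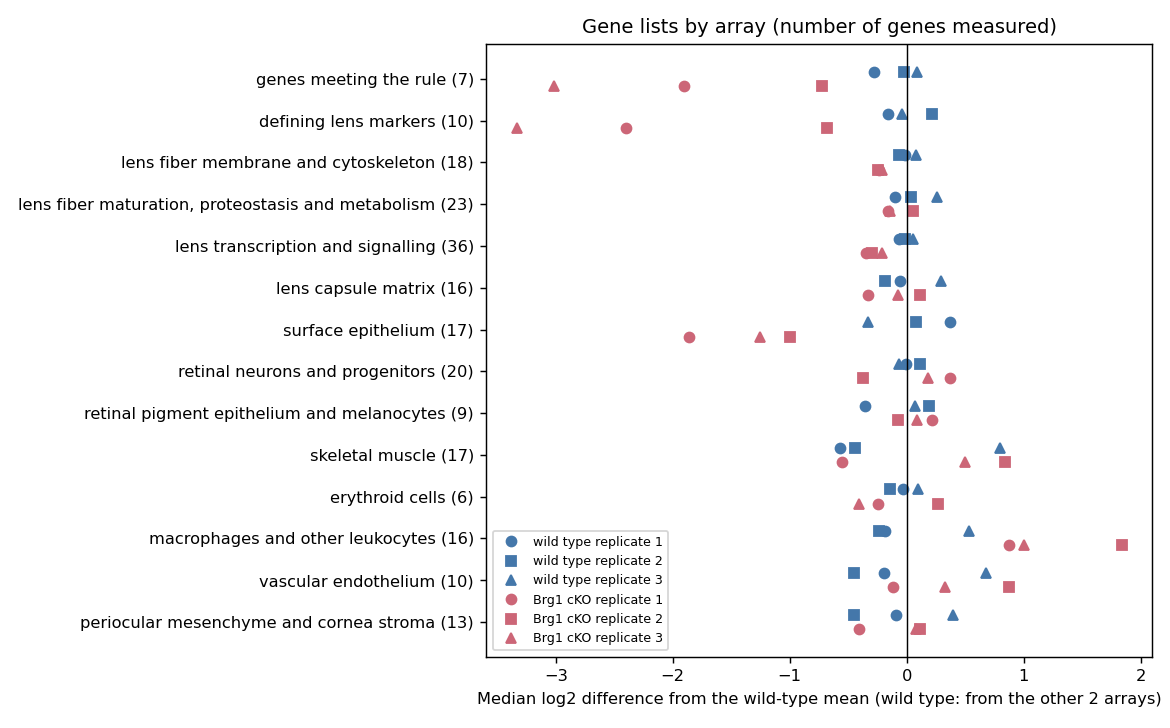
Median log2 difference from the wild type mean of the 7 genes, the defining lens markers and 12 gene lists in each array, where a wild type array is set against the other 2, with the number of genes measured in parentheses, blue for wild type, red for Brg1 cKO and symbols for replicates. Medians in Brg1 cKO replicates 1 to 3 are -1.91, -0.72 and -3.01 for the 7 genes, whose order the rule set, -2.40, -0.68 and -3.33 for the lens markers, which include Crybb3, and -1.86, -1.0 and -1.25 for surface epithelium.

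Lists of other genes known in the lens were looked up as well. They hold neither crystallins nor the 8 lens genes left out by name, whose r ran from 0.641 for Prox1 and 0.875 for Gja3 over 0.910 for Caprin2, 0.924 for Tdrd7, 0.941 for Dnase2b, 0.949 for Mip and 0.958 for Hsf4 to 0.974 for Bfsp1. Of the 93 measured genes on these 4 lists, 4 had an r of 0.9 or more, against 115 of all 12393 genes. Of these, 1, Capn3, reached 0.97, as did 23 of all 12393 genes. The median r of the 93 was 0.35, against -0.04 over all genes. The other 3 were Aldh1a1, a retinaldehyde dehydrogenase gene abundant in lens and retina, with an r of 0.92 and a log2 difference of -1.07, the fibroblast growth factor receptor gene Fgfr3 with 0.92 and -1.43, and the integrin gene Itga6 with 0.91 and -0.43. Of the 18 measured genes on the list of fiber membrane and cytoskeleton, the highest r was 0.85, for the spectrin gene Sptb. Many of these 93 genes are also expressed in retina, vessels or mesenchyme. Lists of other eye tissues held 0 genes with an r of 0.9 or more. With only 115 such genes among all 12393, nothing is read from this 0. Their median r ran from -0.43 for macrophages and other leukocytes and -0.39 for retinal neurons to 0.51 for erythroid cells and 0.61 for surface epithelium. Leukocyte genes had medians of 0.88, 1.84 and 1.01 in Brg1 cKO replicates 1 to 3, with 3 of 16 called higher by limma, against 53 of all 12393 genes.

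**Figure D4:**
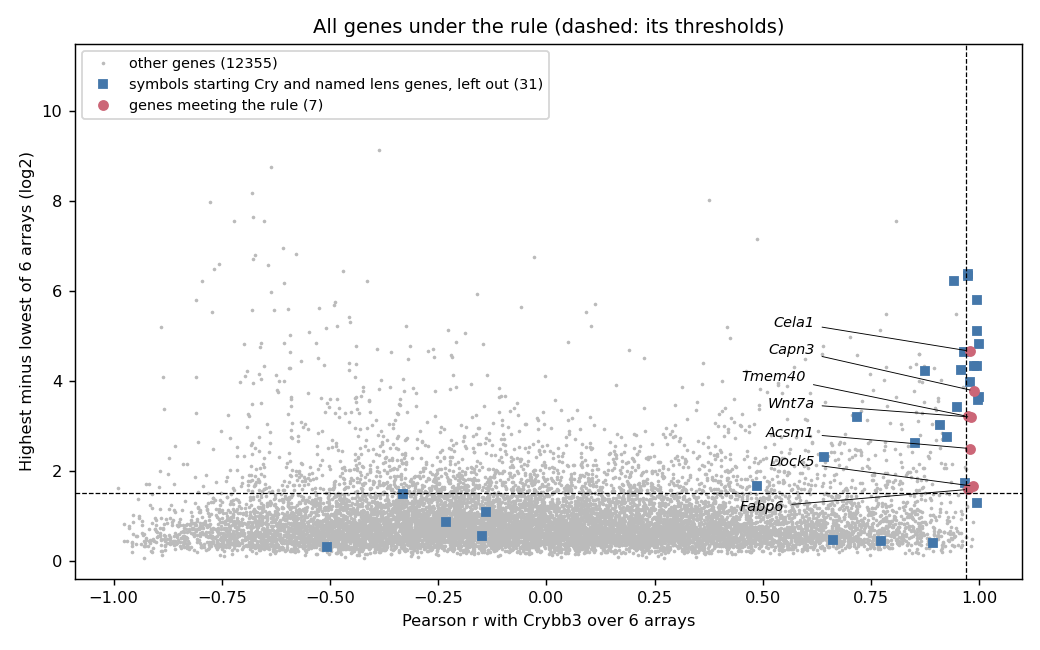
Pearson r with Crybb3 over 6 arrays on the horizontal axis and the highest minus the lowest array in log2 units on the vertical axis, 1 point for each of 12393 genes, with dashed lines at the thresholds of 0.97 and 1.5. The 7 labelled genes lie in the upper right corner between crystallins, and most of the 1734 genes above the horizontal line lie well to the left of the vertical line.

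The threshold of r cut between close values, and genes just outside each threshold are listed here. Below an r of 0.97, Vit, which encodes an extracellular matrix protein, had 0.969 with a log2 difference of -1.44, Gss, the glutathione synthetase gene, 0.968 with -1.24, Defb1, a defensin gene of epithelia, 0.962 with -2.78, Muc1, a mucin gene of epithelial surfaces, 0.961 with -0.88, and Rab17, a trafficking GTPase gene of epithelial cells, 0.954 with -1.91. Just inside were Tmem40 at 0.974 and Fabp6 at 0.974. With r above the threshold but too small a range stood Col7a1, a collagen gene of epithelial anchoring fibrils, at 1.23, then Wnt5b at 1.19, Slc39a4, a zinc transporter gene, at 0.86, Wnt9b at 0.48 and Cyb561d2 at 0.33. Just inside that threshold were Fabp6 at 1.59 and Dock5 at 1.66. In the other direction, 1 gene had an r of -0.97 or less with a range of 1.5 or more, the pseudogene Sprr2j-ps, with -0.989 and 1.63.

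Membership rested most on Brg1 cKO replicate 3. Without that array 24 genes met the rule, and of the 7 genes only Tmem40 and Wnt7a were among them. With any other array left out, 6 or 7 of the 7 still met it. Without Brg1 cKO replicate 2 or 1, all 7 met it, beside 8 and 6 further genes. The median log2 difference of the 7 was -1.32 without Brg1 cKO replicate 3 and -2.63 without replicate 2.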

How the data were processed

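The deposited table held 1 intensity value per probe set and array on the linear scale, which the authors made with RMA (background correction, quantile normalization and summarization; version not given in the sources used here) from 6 Affymetrix mouse arrays, after amplification of eyeball RNA. Values were converted to log2. Of 22690 rows, 64 controls were left out. Of the other 22626 probe sets, 20380 named 1 gene in the platform annotation, 691 several and 1555 none. No genome coordinates were used for probe sets. Per gene the brightest 1-gene probe set was taken (Python 3.11.15, pandas 2.3.3).

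Groups came from the labels. Genotypes were compared in limma 3.58.1 (R 4.3.3, lmFit and eBayes, genotype only, two-sided, Benjamini-Hochberg over all probe sets, threshold 0.05), tested on simulated data. The template matching of the study was run as an alternative. With 3 arrays per group, an exact permutation test cannot give a two-sided p below 0.1. Limma p-values weigh the genotype difference against the spread between these arrays, which limma moderates by that of all probe sets. Having 3 arrays per group limits the precision. RMA sets all arrays to 1 distribution, and amplification and summarization can compress differences of dim and of very bright genes. Each fold is of geometric means.

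All genes meeting the rule were named, with the 5 genes just outside each threshold, Crybb3, Smarca4 and genes of the lists that are discussed. Members and lists were chosen with earlier results of these data known. The Wnt family was added after its values were seen. Promoter sequence was taken from RefSeq GRCm38.p6. Alternatives changed the thresholds, the reference crystallin, the probe set choice, the scale, a floor, the normalization, the replicate block and each array in turn.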

Additional observations from a re-analysis of the deposited data

How the results depend on the processing

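Against 7 genes, the rule gave 13 at an r of 0.95, 0 at 0.99, 0 with Crybb2 as reference, 11 with Cryba2, 11 with Crygs, 18 with Cryaa and 3 (Capn3, Dock5 and Tmem40) with values floored at log2 4.84. Leaving out 1 array in turn gave 8 to 24, 24 without Brg1 cKO replicate 3, 15 without replicate 2 and 13 without replicate 1. Apart from the replicate block given below, the other settings stayed between 5 and 10. Of 21 alternatives, Tmem40 and Wnt7a met the rule in 18, Dock5 in 17, Acsm1 and Cela1 in 16, Capn3 in 15 and Fabp6 in 13. Of the lens lists, 1 gene met it, 0 at an r of 0.99 or with Crybb2 or Cryba2 as reference, 2 with Cryaa and 1 to 2 with an array left out. The limma count of 115 probe sets became 190 with array weights, 820 with template matching and 24 to 216 with an array left out, and the count of 0 of the 7 genes (7 at an unadjusted p under 0.05) became 2 with array weights (Tmem40 and Wnt7a), 5 with template matching and 0 to 4 with an array left out, 4 without Brg1 cKO replicate 2. The median difference of the 7 genes, -2.0, ran from -2.63 to -1.32 with an array left out. With the floor, Acsm1 differed by -0.85 and Fabp6 by 0. The cause was not tested.

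Same-numbered arrays of the groups had correlations of their deviations of 0.06, 0.08 and 0.13, so the numbers were not taken as pairs. With the replicate number as a block, 24 genes met the rule, the 7 among them, 2 of them on the lens lists, limma called 45 probe sets and 0 of the 7 genes, and their median difference was -2.0.

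Readings below log2 4.84, as all 6 of Fabp6, have less room to fall than those of bright genes, which can limit their differences. This value is a percentile and not a floor, and Fabp6 read 2.90 in Brg1 cKO replicate 3.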

Other observations

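Outside the choice of 1 probe set per gene, 6 further probe sets met both thresholds with Crybb3. A probe set shared by Flad1 and Lenep, the latter a gene of the lens epithelium, had an r of 0.971 and a log2 difference of -3.05, more than any of the 7 genes, with values of 11.76, 12.42 and 12.12 in wild type against 9.35, 10.34 and 7.46 in Brg1 cKO replicates 1 to 3. All its Brg1 cKO arrays lay below its wild type arrays, and which of the 2 genes it read is not known here. A probe set of the gamma-crystallin genes Crygc and Crygb had an r of 0.973. A probe set with no gene name here read 7.15, 7.30 and 7.28 in wild type against 5.47, 6.63 and 4.72 in Brg1 cKO, with an r of 0.995. Dimmer second probe sets of Gabrp, a GABA receptor subunit gene, and Alox12, a lipoxygenase gene, had r of 0.99 and 0.972 near the low end of the scale, and the last was that of Tmem40.

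Genes outside the 7 met the rule in some alternatives. Of 21 alternatives, Vit met it in 11, Defb1 in 9, 1300017J02Rik in 7, Gss in 6, and Muc1 and Rab17 in 4. These counts share arrays and are a description.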
